A study of Mus musculus with 7 samples.

Results

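Transfer RNA (tRNA) genes of chromosomes 3, 8, 11 and 13 were examined for peaks of the transcription factors LEF1 and TCF1 in mouse CD8 T cells. The members were all genes of type tRNA in the RefSeq gene table of GRCm38.p6 on these 4 chromosomes. The table lists 204, of which 5 on chromosome 11 carry scaffold coordinates and were not placed, which left 199 of the 403 placed nuclear tRNA genes. Chromosome 13 holds 105 of them, chromosome 11 holds 47, chromosome 3 holds 40 and chromosome 8 holds 7. The genes are 71 to 107 bp long with a median of 73 bp, and they cover 20 amino acids and 46 anticodons.

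The assay was CUT&RUN: a nuclease tethered to an antibody cuts the DNA around the antibody's target, and the freed fragments are sequenced. There were 3 LEF1 libraries and 3 TCF1 libraries, both from WT mice carrying the P14 T cell receptor transgene, whose CD8 T cells were purified from spleen by the gate CD8+/Ly5.1+/CD44-/CD62L+, the surface phenotype of naive cells. No treatment is named. All cells carried 1 transgenic receptor, so they stand for a single specificity and not for a natural repertoire. The input control, from a different gate (CD8+/Ly5.1-/CD44+), has no peak list among those used here. Whether replicates are from separate animals is not said in the labels, so a p-value here measures the spread between libraries, which may be technical. No genotype lacking either factor was analysed, so no list gives the background of the antibodies.

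tRNA genes are transcribed by RNA polymerase III from promoters that lie inside the gene. The factor TFIIIC binds the internal A box and B box and places TFIIIB upstream of the start, and TFIIIB then recruits the polymerase. Most tRNA genes of the mouse lie in families of near-identical copies, many of them in dense groups beside histone genes. LEF1 and TCF1 are HMG-box factors that act on RNA polymerase II genes and are best known in T cells for their part in thymic development and in the naive and memory states.

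To show what the internal promoter looks like in genes with and without peaks, the 4 members whose sequence could be read from RefSeq promoter windows of neighbouring genes (GRCm38.p6) are printed 5′ to 3′, with matches to the core letters of the A box (TNGNNNAGT) and the B box (GGTTCNA) in capitals. The orientation was set by the A box match, since the gene table gives no strand. Val-CAC gene n-TVcac9 lies at chr13:23446142-23446214 on the minus strand, Ala-AGC gene n-TAagc16 at chr13:21222586-21222657 on the plus strand. His-GTG gene n-THgtg7 is shown in its first 62 of 72 bases, at chr3:96452495-96452556 on the plus strand. Leu-CAA gene n-TLcaa3 is shown in its first 17 of 107 bases, at chr11:58302564-58302580 on the minus strand.
n-TVcac9: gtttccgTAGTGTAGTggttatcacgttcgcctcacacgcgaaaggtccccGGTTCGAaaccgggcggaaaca
n-TAagc16: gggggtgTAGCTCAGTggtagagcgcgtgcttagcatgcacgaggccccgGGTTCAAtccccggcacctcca
n-THgtg7: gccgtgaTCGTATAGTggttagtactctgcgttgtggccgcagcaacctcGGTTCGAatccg
n-TLcaa3: gtcaggaTGGCCGAGTg
The A box match began at base 8 in all 4 genes, and a B box match began at base 51 or 52 in the 3 genes read far enough. Peaks lay within 1 kb of n-TLcaa3 in 6 libraries, of n-TVcac9 in 5, of n-TAagc16 in 1 and of n-THgtg7 in 0, so genes with all shown box letters stood both with and without peaks. Searched on both strands, the same A box letters were in 31.3% and the B box letters in 9.03% of 21263 RefSeq promoter windows of protein-coding genes, each running from 250 bases before to 50 bases after the start.

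About 1 tRNA gene in 2 had a peak close by. A peak interval lay within 1 kb of 94, 108 and 91 of the 199 genes in LEF1 replicates 1 to 3 and of 94, 90 and 53 in TCF1 replicates 1 to 3. A factor was said to hold a gene when at least 2 of its 3 libraries had such a peak. LEF1 held 100 genes (50.3%), TCF1 held 90 (45.2%) and both held 89 (44.7%). At the ends of 21843 protein-coding genes the same rule gave 33.1% for LEF1, 32.1% for TCF1 and 29.9% for both. For windows of the median tRNA gene length laid every 100 bp along the 4 chromosomes it gave 2.66%, 2.11% and 2.03%. The members' shares were above both backgrounds in these lists, with no test across genes, since neighbouring genes share peaks. With every list shortened to its 11423 peaks of highest −log10 q, LEF1 held 46 members (23.1%), TCF1 45 (22.6%) and both 40 (20.1%), beside 15.8%, 18.9% and 14.8% of protein-coding genes and 1.23%, 1.2% and 1.07% of windows. Without TCF1 replicate 1 or 2, TCF1 held 53 members (26.6%), all of them with LEF1, beside 19% of protein-coding genes and 1.13% of windows. Held still meant 2 libraries, so TCF1 then needed both that were left and could not exceed the 53 of replicate 3.

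Other small RNA genes stood much lower. Of 997 small nuclear RNA (snRNA) genes of the genome, LEF1 held 6.32%, TCF1 5.52% and both 5.42%. Of 1330 small nucleolar RNA (snoRNA) genes LEF1 held 5.04%, TCF1 5.11% and both 4.44%, and of 1228 microRNA genes 9.28%, 7.82% and 7.65%. The 204 tRNA genes of the remaining chromosomes lay between the members and these classes in share, at 35.3% for LEF1, 32.4% for TCF1 and 30.9% for both, close to the protein-coding ends, and 121 of them had no peak in any library.

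Each library placed a small and similar part of its list at these genes. The lists held 27666, 37646 and 23704 peaks for LEF1 and 25623, 22901 and 11423 for TCF1, and 73, 82 and 58 against 63, 58 and 31 of those peaks lay within 1 kb of a member. That is 0.218% to 0.271% of a list, with the highest share in the shortest list, TCF1 replicate 3. By number of libraries, 52 genes had a peak in all 6, 32 in 5, 24 in 1 to 4 and 91 in none. Of the 32 genes with a peak in 5 libraries, 31 lacked one in TCF1 replicate 3 alone. Merged over the libraries by an overlap of at least 1 bp, the peaks near members formed 82 regions, of which 50 lay near 1 tRNA gene and 32 near 2 or more, up to 5. Genes of 1 such region are therefore not independent readings.

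**Figure D1:**
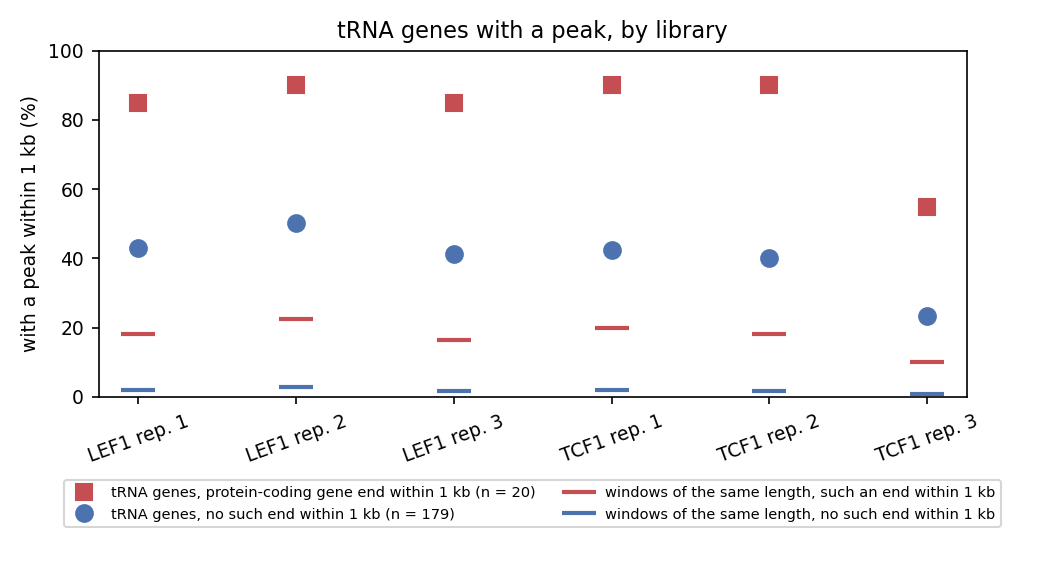
Share of tRNA genes with a peak within 1 kb in each library (y axis, percent), for the 20 genes with the end of a protein-coding gene within 1 kb (squares) and the 179 without (circles). Short lines give the same share for windows of tRNA gene length with and without such an end. Both kinds of gene sit above their windows in all 6 libraries, and TCF1 replicate 3 is the lowest library for both.

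LEF1 and TCF1 did not differ beyond the spread of the libraries in how many tRNA genes carried a peak. The share was 47.2%, 54.3% and 45.7% in the LEF1 libraries and 47.2%, 45.2% and 26.6% in the TCF1 libraries, so the groups overlapped and TCF1 replicate 3 stood apart as the low value. The means were 49.1% ± 4.56 (SD, n = 3) and 39.7% ± 11.4 (SD, n = 3), a difference of 9.38 percentage points (two-sided exact permutation test over 20 assignments, p = 0.3, Benjamini-Hochberg adjusted over 4 tests p = 0.4). With 3 against 3 libraries the smallest value this exact permutation test can give is p = 0.1. With the lists of equal size, each as long as the shortest, the difference turned to -1.17 percentage points (exact permutation p = 0.7).

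Most peaks sat on or beside the tRNA gene itself. In the 3 LEF1 libraries the interval overlapped the gene for 68.1%, 81.5% and 70.3% of the tRNA genes with a peak, and in TCF1 replicates 1 and 2 for 70.2% and 70.0%. TCF1 replicate 3 was lower, with 16 of 53 genes overlapped (30.2%). The median distance from the gene to the summit, the position of highest signal in the peak, was 174.5, 212 and 276 bp in the LEF1 libraries and 215, 273.5 and 274 bp in the TCF1 libraries. Counted outward from the nearest tRNA gene, the first kilobase held 69, 78 and 56 LEF1 summits and 60, 56 and 31 TCF1 summits, and the second held 10, 14 and 6 and then 6, 6 and 1. No later kilobase out to 10 kb held more than 8 in any library.

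**Figure D2:**
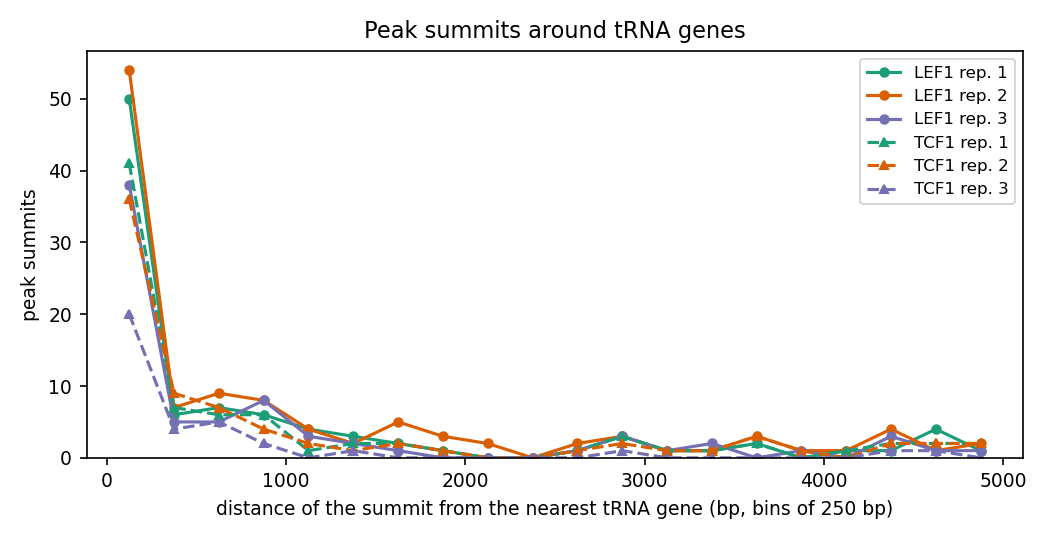
Number of peak summits (y axis) by distance to the nearest tRNA gene (x axis, bp, bins of 250 bp, the gene itself included in the first) in the 6 libraries, LEF1 as solid and TCF1 as dashed lines. The first bin holds 50, 54 and 38 LEF1 summits and 41, 36 and 20 TCF1 summits, and every library falls to below 10 in the next bin.

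The nearness of a protein-coding gene end went with a higher share held. Of the 20 tRNA genes with such an end within 1 kb, LEF1 and TCF1 each held 18 (90%), where windows with an end that near were held at 18.6% and 17.5%, and by both at 16.3%. Of the 179 without, LEF1 held 82 (45.8%), TCF1 72 (40.2%) and both 71 (39.7%), where windows with no end that near were held at 2.14%, 1.6% and 1.56%. Away from protein-coding ends thus lay 82 of the 100 genes LEF1 held and 72 of the 90 TCF1 held, beside 179 of all 199 members. By distance to the nearest end, LEF1 held 60.5% of 38 tRNA genes at 1 to 5 kb, 59.8% of 87 at 5 to 20 kb and 13% of 54 beyond 20 kb. TCF1 held 55.3%, 52.9% and 9.26% of the same genes. The windows of those distances fell from 5.67% and 4.47% at 1 to 5 kb to 1.29% and 0.949% beyond 20 kb. The 14 tRNA genes inside a protein-coding gene included 5 held by LEF1, 4 held by TCF1 and 7 with no peak.

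The libraries gave the same picture when read singly. Away from protein-coding ends, 43.0%, 50.3% and 41.3% of tRNA genes had a peak in the LEF1 libraries and 42.5%, 40.2% and 23.5% in the TCF1 libraries. The difference of 9.50 percentage points was within the spread (exact permutation p = 0.2, adjusted p = 0.4) and turned to -0.931 with lists of equal size. Near protein-coding ends the shares were 85%, 90% and 85% for LEF1 and 90%, 90% and 55% for TCF1. That difference of 8.33 points (exact permutation p = 1, adjusted p = 1) rested on TCF1 replicate 3, without which it was -3.33 points, and with lists of equal size it was also -3.33.

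The protein-coding neighbours within 1 kb numbered 16. Both factors held all 16 at an end, beside 33.1% for LEF1 and 32.1% for TCF1 over all protein-coding genes. A peak at either end counted, so the held end need not be the one beside the tRNA gene. Among the 16, Mynn encodes a zinc-finger protein, Ilf2 a subunit of a double-stranded-RNA-binding complex, Psmb3 a proteasome subunit, Per1 a circadian clock repressor and Hes7 a bHLH repressor of the segmentation clock. The other 11 were Acp6, Fbxo31, Trim41, Ctc1, Borcs6, Aloxe3, Pcgf2, Lasp1, Arl5c, Mrpl58 and H4c8. The 2 tRNA genes near an end that had no peak in any library, n-TTagt5 and n-TScga3, both lay beside Per1. A peak close to both a tRNA gene and a protein-coding start cannot be assigned to either from its position.

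The tRNA genes beside Mynn, Ilf2 and Fbxo31 were among the best-ranked, and a peak lay over each of their promoter windows in all 6 libraries. The windows of Mynn and Ilf2 are printed as examples. They come from RefSeq (GRCm38.p6), plus strand, at chr3:30601837-30602136 for Mynn and chr3:90475951-90476250 for Ilf2, with matches to the LEF/TCF core CTTTG on either strand in capitals.
Mynn: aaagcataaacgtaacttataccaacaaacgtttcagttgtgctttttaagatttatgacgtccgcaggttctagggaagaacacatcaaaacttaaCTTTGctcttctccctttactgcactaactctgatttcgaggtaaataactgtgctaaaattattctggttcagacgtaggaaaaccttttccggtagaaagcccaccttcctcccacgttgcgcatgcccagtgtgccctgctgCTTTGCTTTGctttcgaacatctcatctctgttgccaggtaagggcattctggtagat
Ilf2: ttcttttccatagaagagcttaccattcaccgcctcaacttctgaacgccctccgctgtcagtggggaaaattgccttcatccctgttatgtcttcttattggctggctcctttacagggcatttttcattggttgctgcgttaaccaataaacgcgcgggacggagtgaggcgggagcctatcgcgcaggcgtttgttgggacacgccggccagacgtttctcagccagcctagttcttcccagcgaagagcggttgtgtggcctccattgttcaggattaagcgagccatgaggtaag
The Mynn window held 3 matches to CTTTG and the Ilf2 window 0. Of 15 windows of these neighbours, 2 of them of Per1, CTTTG was in 3 (Mynn, Trim41 and H4c8) and the longer CTTTGAT, which contains it, in 0, while over all 21263 windows CTTTG was in 51.2% and CTTTGAT in 3.22%. The A box letters were in 6 and the B box letters in 2 of the 15. No window was read for Aloxe3 or Arl5c. The windows of Per1, Ctc1, Borcs6 and Mrpl58 lay toward the gene end away from the tRNA gene. The Hes7 window lay toward the end beside n-TGgcc5, away from the other tRNA genes near Hes7. A match is a description of letters and not a binding site.

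The strongest peaks at members differed widely in strength, and the 12 of best mean rank among the genes with a peak in all 6 libraries are given here. Strength is the fold enrichment the authors' caller gave a peak over its local background, and the rank percentile is the place of that fold in its own list, low for strong peaks. In choosing the 12, genes that shared 1 region were counted once. Over all members with a peak, the median fold of the best peak was 12.6, 17.6 and 11.4 in the LEF1 libraries and 11.2, 10.8 and 7.43 in the TCF1 libraries, beside whole-list medians of 10.8, 11.4 and 10.5 and of 10.9, 10.9 and 9.53. These member medians count a shared peak for every gene near it.

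The gene with the strongest peak was n-TSgct5, a Ser-GCT gene at chr13:22050686-22050767 with no protein-coding end within 1 kb. Its fold was 55.2, 68.5 and 47.5 in the LEF1 libraries and 43.7, 40.7 and 19.9 in the TCF1 libraries, the highest value at any member in each library, with a mean rank percentile of 5.74. Every LEF1 value was above every TCF1 value. The peaks formed 1 region of 2228 bp, from 22049126 to 22051353, near no other tRNA gene.

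Next was the region entered under the Gly-GCC gene n-TGgcc6 at chr13:23517203-23517273, a gene also with no protein-coding end within 1 kb. Its region of 2954 bp lay near 4 further genes, n-TMcat6, n-TStga1, n-TQttg4 and n-TQttg5, which decode methionine, serine and glutamine. The fold there was 51.5, 61.6 and 40.0 in the LEF1 libraries and 39.4, 39.1 and 16.3 in the TCF1 libraries. The groups did not overlap, the LEF1 values being the higher, though LEF1 replicate 3 and TCF1 replicates 1 and 2 were close together. The nearest summit lay 82 to 163 bp from the Ser-TGA gene n-TStga1 in all 6 libraries. From n-TGgcc6 it lay 1036 to 1117 bp away in the LEF1 libraries and TCF1 replicates 1 and 2, and 203 bp away in TCF1 replicate 3.

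The Val-AAC gene n-TVaac8, at chr3:30601270-30601342, stood before the start of Mynn. Its fold was 32.2, 41.0 and 26.3 for LEF1 and 39.4, 35.4 and 17.4 for TCF1, with overlapping groups. In LEF1 replicates 2 and 3 and TCF1 replicates 1 and 2 the summit lay 826 to 837 bp away, on the side of Mynn. In LEF1 replicate 1 and TCF1 replicate 3 the nearest summit was 121 bp away. At the Glu-CTC gene n-TEctc10, chr11:58302177-58302248, whose region also lay near the Leu-CAA gene n-TLcaa3 printed above, the fold was 35.6, 54.9 and 33.9 for LEF1 and 25.2, 26.4 and 14.2 for TCF1. LEF1 was the higher in every library there. The initiator and elongator methionine genes share the anticodon CAT, and 2 of this kind beside protein-coding genes were among the 12. n-TMcat17 beside Fbxo31 on chromosome 8 had folds of 20.4, 28.6 and 20.8 for LEF1 and 24.5, 22.4 and 12.1 for TCF1. The summit there lay 274 to 303 bp from the tRNA gene, on the side of Fbxo31. n-TMcat11 beside Ilf2 on chromosome 3 had 18.2, 27.4 and 18.6 against 17.3, 18.1 and 11.02. The LEF1 and TCF1 values overlapped at n-TMcat17, and at n-TMcat11 the lowest LEF1 value and the highest TCF1 value were almost equal.

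The other 6 are for leucine, glutamine, tyrosine, glutamate, glycine and cysteine. The Leu-CAG gene n-TLcag4 on chromosome 8, which shares its region with n-TLcag5, had folds of 27.4, 38.2 and 25.3 for LEF1 and 17.0, 17.1 and 8.69 for TCF1, without overlap. n-TQttg6, a Gln-TTG gene on chromosome 11, had 20.5, 26.0 and 18.2 against 18.7, 28.8 and 9.31, and there TCF1 replicate 2 was the highest of all 6. The remaining 4 were n-TYgta7, n-TEctc13, n-TGgcc7 and n-TCgca55, at 13.4 to 27.3 in the LEF1 libraries and 6.03 to 21.0 in the TCF1 libraries. Each of them shared its region with another tRNA gene. In all 12 the lowest fold was that of TCF1 replicate 3, the library with the shortest list.

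**Figure D3:**
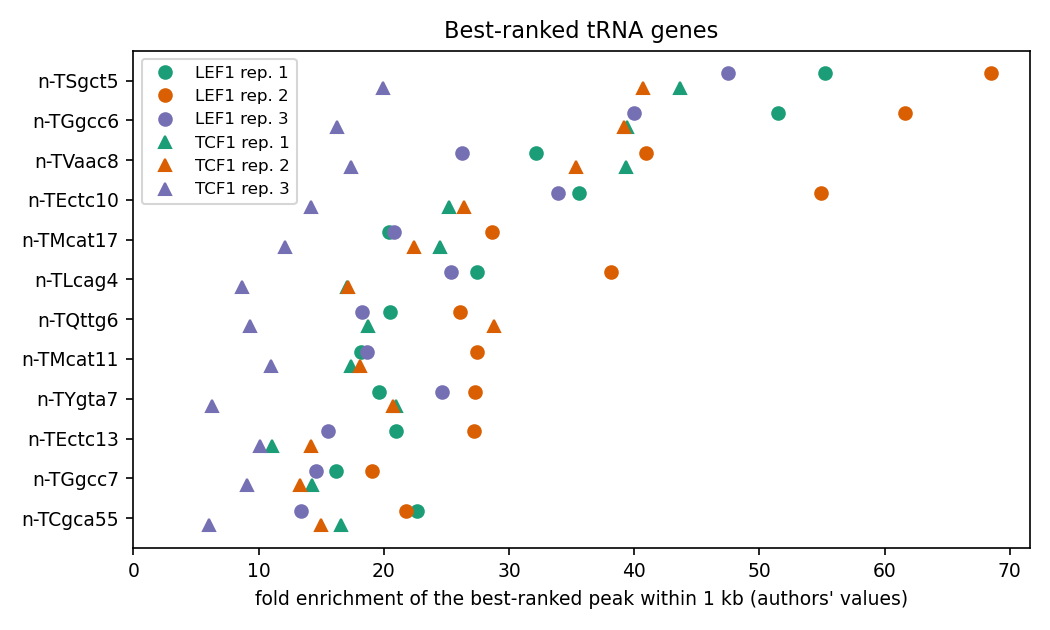
Fold enrichment as given by the authors' peak caller (x axis, linear) of the best-ranked peak within 1 kb of the 12 tRNA genes of best mean rank among those with a peak in all 6 libraries, shared regions counted once (y axis), with 1 point per library, circles for LEF1 and triangles for TCF1. The values run from 6.03 to 68.5, and TCF1 replicate 3 is the lowest point in every row.

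Ranks put tRNA gene peaks further up the LEF1 lists than the TCF1 lists, and so they did for regions in general. The median rank percentile of the tRNA genes' peaks was 49.3, 47.7 and 52.6 in the LEF1 lists and 65.4, 55.6 and 70.0 in the TCF1 lists, with no overlap. The means were 49.9 ± 2.52 (SD, n = 3) and 63.7 ± 7.36 (SD, n = 3), a difference of -13.8 points (two-sided exact permutation p = 0.1, the smallest possible, adjusted p = 0.4). With lists of equal size it was -2.69 points (exact permutation p = 0.4), and ranks from lists of unequal length do not by themselves show a difference between the factors. In 11 of the 25 regions near members found in all 6 libraries every LEF1 rank was stronger than every TCF1 rank, and in 1 the reverse. Over all 10890 regions of the series found in all 6 libraries these shares were 27.5% and 0.955%, and the median difference of -12.7 points at the 25 regions stood beside -8.96 points at all 10890.

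The single region with the reverse order, 638 bp long at chr11:48816950-48817587, lay inside Trim41 (chr11:48806403-48818199). It overlapped the promoter window of Trim41 and was within 1 kb of the Val-CAC gene n-TVcac7. Its rank percentile was 84.2, 61.3 and 78.1 in the LEF1 lists and 30.2, 36.4 and 51.1 in the TCF1 lists, without overlap. Trim41 encodes a ubiquitin ligase. A further region of 706 bp nearer to n-TVcac7 was found in 5 libraries.

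Few members were held by 1 factor alone. LEF1 alone held 11 of the 199 genes and TCF1 alone held 1. Of the 21843 protein-coding genes, LEF1 alone held 680 and TCF1 alone 475 at an end. Of the 5188780 windows of tRNA gene length they held 32711 and 3964. The 11 members held by LEF1 alone were n-TVcac10, n-TNgtt5, n-TQctg7, n-TLcaa4, n-TQctg1, n-TVaac3, n-TScga1, n-TEttc5, n-TRtcg3, n-TSgct4 and n-TRtcg1. All were away from protein-coding ends, as were 179 of all 199 members. All but n-TVcac10 and n-TNgtt5 were on chromosome 13, which holds 105 members. The Gln-CTG gene n-TQctg1 at chr13:21996581-21996652 was the only member with a peak in every LEF1 and no TCF1 library, with folds of 7.41, 10.2 and 7.55. No member had the opposite pattern. n-TLcaa1, held by TCF1 alone, had folds of 5.13 and 6.05 in TCF1 replicates 1 and 2 and 5.73 in LEF1 replicate 2, so its peaks were weak in both. Among the 11 held by LEF1 alone, n-TQctg7 and n-TLcaa4 had a mean rank percentile of 99.9 and n-TVaac3 one of 36.6, so strength differed there. With lists of equal size LEF1 alone held 6 and TCF1 alone 5, beside 217 and 891 protein-coding genes. Without LEF1 replicate 2, the longest list, they held 2 and 7, beside 275 and 1065. Without TCF1 replicate 1 or 2 they held 47 and 0, beside 3100 and 26 or 27. Held still meant 2 libraries there, so the factor with 1 library left out needed a peak in both others. The counts held by 1 factor alone thus moved with the lists used.

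Most members lie in dense groups. With a cluster defined as at least 3 tRNA genes with gaps of at most 20 kb, 156 members fell into 16 clusters of 3 to 22 genes. LEF1 held 75 of the clustered genes (48.1%) and TCF1 65 (41.7%). Both factors held the same 25 of the 43 genes outside clusters (58.1%). A protein-coding end lay within 1 kb of 13 of the clustered genes and of 7 of the others, and the difference between these shares was not tested.

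Of the clusters, 4 were held as a whole, 2 had no peak and 10 were divided. The 4 clusters with every gene held by both factors have 18 genes. The first of these, on chromosome 3 at 19627959 to 19629067, has 4 genes for arginine, tyrosine and alanine. All 4 lay near the same 2 regions, found in 5 and 6 libraries. The best-ranked peak had folds of 11.5, 17.2 and 10.3 for LEF1 and 14.9, 12.8 and 6.05 for TCF1. The other 3 clusters lay on chromosome 11 and had 7 genes within 4.895 kb, 4 within 1.247 kb and 3 within 0.871 kb. They include genes next to Ctc1, Borcs6 and Mrpl58. In 2 clusters of chromosome 13, with 12 genes in all, no gene had a peak in any library. The larger of these has 9 genes for isoleucine, valine, alanine and methionine over 47.118 kb, from 23270421 to 23317538.

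The largest cluster shows both states side by side. It has 22 genes over 70.106 kb of chromosome 13, from 23397060 to 23467165, none within 1 kb of a protein-coding end, of which LEF1 held 11 and TCF1 10 and 11 had no peak. Its first 6 genes, from n-TIaat3 to n-TVaac5, had no peak in any library. The peaks began with n-TYgta3, at 5.87, 9.34 and 5.58 for LEF1 and 5.15 and 4.69 for TCF1 replicates 1 and 2. They were strongest at n-TYgta7, with 19.6, 27.3 and 24.7 for LEF1 and 21.0, 20.7 and 6.30 for TCF1. The next 3 tyrosine genes after n-TYgta3, n-TYgta4, n-TYgta5 and n-TYgta6, all with the anticodon GTA, had no peak. Of the 11 genes with peaks, 8 were missing only in TCF1 replicate 3.

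The remaining clusters lay between. A cluster of 6 genes on chromosome 3 had 2 held by LEF1 and 0 by TCF1. On chromosome 3, LEF1 and TCF1 held 4 of 19 genes in 118.608 kb, and those 4 genes (n-TKctt16, n-THgtg8, n-TGtcc7 and n-TEctc13) shared 1 region. On chromosome 13, a cluster of 18 genes had 3 held and 15 without a peak and one of 13 genes had 11 without a peak, whereas a cluster of 14 genes had 12 held by LEF1 and 9 by TCF1 and one of 9 genes had all 9 held by LEF1 and 7 by TCF1. A further cluster of 10 genes on chromosome 13 had 4 held by LEF1 and 1 by TCF1. On chromosome 11, 7 of 8 and 5 of 7 genes were held by both in the 2 clusters not named above. By chromosome, both factors held 36 of 47 members on chromosome 11 (76.6%), 15 of 40 on chromosome 3, 4 of 7 on chromosome 8 and 34 of 105 on chromosome 13 (32.4%).

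**Figure D4:**
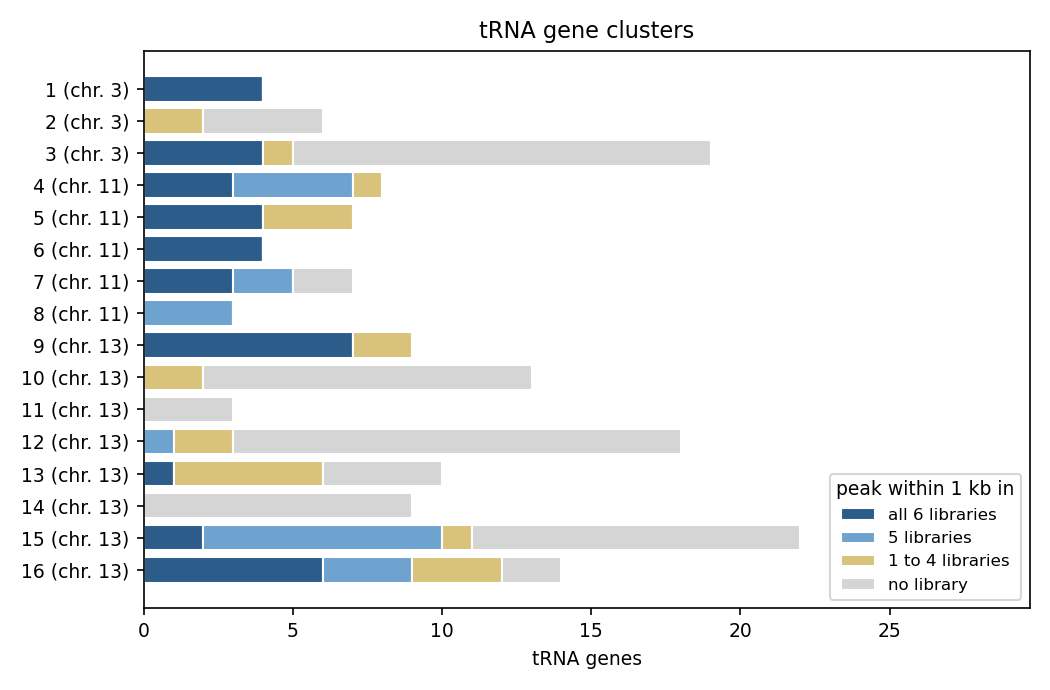
Number of tRNA genes (x axis) in each of the 16 clusters (y axis, in genome order with the chromosome), coloured by the number of libraries with a peak within 1 kb. Clusters 11 and 14 are grey throughout, clusters 1, 4, 5, 6, 8 and 9 have no grey, and cluster 15, the largest with 22 genes, is grey for 11.

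Amino acid families were divided as well, and none was held or left out as a whole. Methionine genes were held in 10 of 13 cases by both factors, with 8 in all 6 libraries, the most for any amino acid here. Proline genes were held in 5 of 6 cases by both and arginine genes in 11 of 15 for LEF1 and 9 for TCF1. Only 1 of 15 arginine genes had a peak in all 6 libraries, 8 more being missing in TCF1 replicate 3. Histidine had 1 of 6 held by both, alanine 4 of 14, threonine 4 of 12, isoleucine 3 of 10 and asparagine 2 of 7 for LEF1 and 1 for TCF1.

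The other families are given by their counts. Leucine had 9 of 14 held by each factor, glutamate 5 of 7 by LEF1 and 4 by TCF1, and cysteine 3 of 5 by each. Serine, the largest family, had 9 of 16 held by LEF1 and 7 by TCF1, and valine 6 of 15 and 4. Glutamine had 7 of 14 and 5, glycine 6 of 13 for each factor, lysine 5 of 11, tyrosine 4 of 8, tryptophan 3 of 6, aspartate 2 of 5 and phenylalanine 1 of 2. Members of 1 amino acid often share a cluster and a region, and the counts are small, so no test was made.

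Anticodons within a family differed in the same descriptive sense. All 4 Glu-CTC genes were held by both factors and, of the 3 Glu-TTC genes, 1 by LEF1 and 0 by TCF1. All 3 Leu-AAG genes were held by both, and 0 of the 3 Gly-CCC and 0 of the 2 Lys-TTT genes had a peak. For lysine, 5 of the 9 Lys-CTT genes were held. Of the 10 Ala-AGC genes, the most numerous of the alanine anticodons, both factors held 2.

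**Figure D5:**
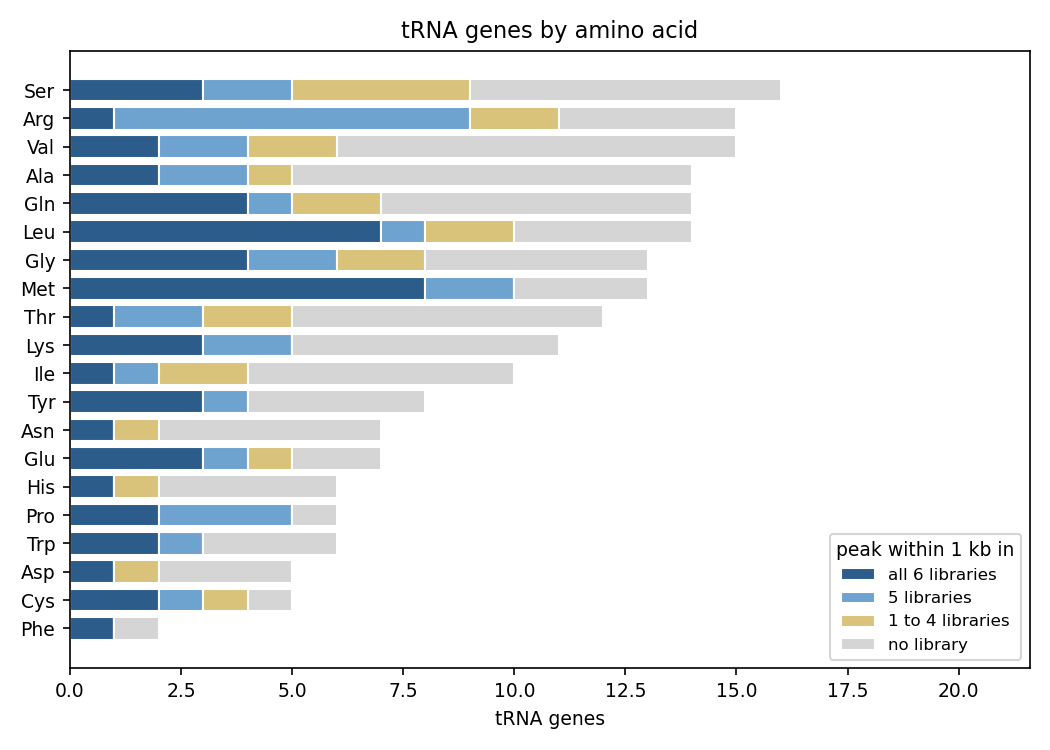
Number of tRNA genes (x axis) for each of the 20 amino acids (y axis, sorted by number), coloured by the number of libraries with a peak within 1 kb. Every family has genes without a peak, and methionine has the most genes with a peak in all 6 libraries, 8 of 13.

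The protein-coding genes that make and use tRNAs were read in the same way, within 1 kb of an end. Of 84 listed genes LEF1 held 58 (69.0%) and TCF1 57 (67.9%), where all protein-coding genes stood at 33.1% and 32.1%, and 52 were held by both. The list was chosen with earlier results known, and it was not set against other genes active in most cells. Whether the share is particular to this pathway was not tested.

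The polymerase and its factors came first in the path to a tRNA. Of 18 RNA polymerase III subunit genes LEF1 held 13 and TCF1 14, led by Polr3e with folds of 38.7, 49.3 and 34.3 for LEF1 and 35.5, 35.1 and 19.4 for TCF1. Polr1d, which encodes a subunit shared with RNA polymerase I, had 11.3 to 22.5. Crcp, Polr1c and Polr2f had no peak. Of 12 genes of TFIIIC, TFIIIB and their regulators each factor held 9. Gtf3c6, a TFIIIC subunit, had 44.1, 60.8 and 39.1 for LEF1 and 38.1, 36.5 and 21.1 for TCF1, Gtf3c2 had 10.4 to 24.7, and Tbp, the TATA-binding protein, had a peak in 5 libraries. Bdp1, a TFIIIB subunit, had none.

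The genes acting after transcription followed. Of 23 genes listed for the cytosolic aminoacyl-tRNA synthetases, which charge tRNAs with amino acids, LEF1 held 17 and TCF1 18. The list includes Aimp1, Aimp2 and Eef1e1, which do not encode synthetases and were each held by both factors. The cysteinyl-tRNA synthetase gene Cars had the strongest peak of the lists, with folds of 95.6, 135 and 91.7 for LEF1 and 105, 96.4 and 52.9 for TCF1. Lars had 11.6 to 41.3 and Mars 13.5 to 32.7, while Eprs, Hars, Kars and Rars had no peak. Of 31 processing and export genes LEF1 held 19 and TCF1 16. Nsun2, a tRNA cytosine methyltransferase, had 30.8 to 70.4, Elac2, which trims the 3′ end of precursor tRNAs, 11.3 to 31.0, and Trmt6, a tRNA methyltransferase subunit, 8.85 to 20.6. At Cars and Polr3e the LEF1 and TCF1 values overlapped.

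The labelled cell type was checked against peaks at marker genes, which are not a measure of expression. All 8 CD8 T cell markers (Cd8a, Cd8b1, Cd3e, Cd3d, Cd3g, Cd2, Cd5 and Lck) had a peak in all 6 libraries. Of 11 markers of B, myeloid and NK cells, both factors held Cd79a and Itgam, and the other 9 were held by neither. Over all protein-coding genes LEF1 held 33.1%, TCF1 32.1% and both 29.9%. Their share with a peak in all 6 libraries was not counted. How reads that match several near-identical tRNA genes were treated is not given in the sources used here, and its part in which copies have a peak was not tested.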

How the data were processed

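The deposited files are 6 peak lists, 1 per library, with no reads, coverage or depth. The submitters' processing notes name MACS3 3.0.3, Bowtie2 2.4.4, deepTools 3.5.1, Picard, Trim Galore 0.6.6 and FastQC 0.12.1 and the build GRCm38.p6. The sources used here give neither their options nor the control. The fold enrichment deposited by the authors is a ratio of summit signal to local background. The deposited p-values and q-values are −log10 values, with a lowest −log10 q of 2.00 to 2.06 per list. The deposited score is a whole number, used for nothing here, and the deposited summit is an offset from the peak start.

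Groups and replicate numbers came from the titles. Peak intervals were set against the RefSeq gene table, where 44 protein-coding rows with scaffold coordinates were left out. Distances were counted from the gene to the nearest base of an interval. Values per library were compared between LEF1 and TCF1 with two-sided exact permutation tests over 20 assignments. Deviations of same-numbered libraries correlated at -0.129, -0.264 and -0.193 across genes by the titles' numbers, which were not taken to pair them. The library names number the replicates differently and share 1 number, between LEF1 replicate 3 and TCF1 replicate 1, whose correlation was 0.252. The genes described singly are the 12 of best mean rank percentile among those with a peak in all 6 libraries, those held by 1 factor, the cluster with most genes and the clusters held in full, and the 3 best-ranked of each machinery list, of which 1 is not reported here; the alternatives tried are in the closing section. The members, lists and rules were chosen with earlier results of these data known. Python 3.11.15 with numpy 2.4.6, pandas 2.3.3 and scipy 1.17.1 was used, and the counting was tested on simulated intervals.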

Additional observations from a re-analysis of the deposited data

How the results depend on the processing

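The number and share of tRNA genes with a peak follow the length of the lists. With lists of equal size (11423 peaks each), the LEF1 minus TCF1 share was -1.17 percentage points for all members, -0.931 away from protein-coding ends and -3.33 near them. LEF1 then held 46 members, TCF1 45 and both 40, and of the machinery genes LEF1 held 24 and TCF1 33. Requiring a peak in all 3 libraries left TCF1 with 53 members, both with 52 and TCF1 with 36 machinery genes. Leaving out 1 library, the share difference ran from 2.85 to 13.1 for all members, from 3.54 to 13.04 away from ends and from -3.33 to 14.2 near ends, -3.33 being the value without TCF1 replicate 3. The rank difference ran from -17.9 to -10.6. When 1 library was left out, held still meant 2 libraries, so that factor needed a peak in both of its others. Members held by LEF1 ran from 85 to 100, by TCF1 from 53 to 90 and by both from 53 to 89, with 53 whenever TCF1 replicate 1 or 2 was left out, and machinery genes from 47 to 58 for LEF1 and from 36 to 57 for TCF1. With a distance of 250 bp the 3 counts of members were 86, 77 and 75, with 5 kb they were 122, 111 and 110, and with −log10 q of at least 5 they were 93, 79 and 75. For these settings, and for a peak in all 3 libraries, the shares of protein-coding genes and windows were not counted. Whether members stayed above those backgrounds was not tested. Clusters depend on the gap: 5 kb gave 19 clusters with 102 genes, 6 fully held and 5 without a held gene, and 100 kb gave 9 with 163 genes, 2 and 0. With the replicate number as a block, the differences of 9.38, 9.50, 8.33 and -13.8 had paired exact permutation p-values of 0.5, 0.25, 1 and 0.25, of which 0.25 is the smallest possible. The block follows the titles' numbers, and the library names number the replicates differently. Neither the paired nor the unpaired test can reach the usual significance threshold at this size, so these tests say nothing about the stability of a call. Members held by LEF1 alone ran from 2 to 47 and by TCF1 alone from 0 to 7 when 1 library was left out, and with lists of equal size they were 6 and 5, a check chosen after seeing the data. The lists give no read depth, so a gene without a peak is one with none called at this depth.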
